A study of Mus musculus with 20 samples.

Results

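Purinergic signalling, by extracellular nucleotides and adenosine, was followed through 10 genes in sorted microglia, the macrophages that live in brain tissue. They were the nucleotide receptors P2ry12, P2ry13, P2ry6, P2ry14, P2rx4 and P2rx7, the adenosine receptors Adora3 and Adora1, and the ectonucleotidases Entpd1 and Nt5e. A gene was included if a probe set of the deposited array table was annotated to its symbol alone, which held for 8 of the 10, out of 19751 genes named in this way. Adora3 was named only on a probe set that carries a second gene, Adora1 on none in the annotation used here, and both were not analysed here. Of the 8, the probe sets of P2ry14 and Nt5e lay under the 40th percentile of every array, and the other 6 lay over it on all 20 arrays and were among the 12728 genes tested.

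Microglia were sorted by flow cytometry from perfused brains of littermates aged 8.5 months, and their RNA was measured on 1-colour arrays, with values used as log2(intensity + 1). The groups were WT (4 arrays), Trem2-/- (4 arrays), which lack the lipid-sensing microglial receptor Trem2, 5XFAD (5 arrays), in which neurons express transgenes that lead to amyloid plaques, and Trem2-/-5XFAD (6 arrays), which combine both. One further array has a WT title and a Trem2-/- genotype label and was put in no group. Trem2 itself had a log2 level between 11.14 and 11.80 on the arrays of both groups that have the gene and between 6.75 and 7.60 on those of both Trem2-/- groups. The labels call the animals littermates and do not say whether each array is 1 animal, and the spread behind each p-value is that between arrays, which may in part be technical.

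Cells release ATP when they are active, stressed or injured. Ectonucleotidases on cell surfaces break it down stepwise to ADP, AMP and adenosine, and ATP, ADP and adenosine have their own receptors. P2Y and adenosine receptors couple to G proteins, and P2X receptors are cation channels opened by ATP. In microglia, P2Y12 directs the fine processes towards sites of ATP release, P2Y6 responds to UDP and promotes phagocytosis, and P2X7, which needs high ATP, allows the potassium efflux that precedes inflammasome assembly. P2ry12 is also a common marker of microglia in the undisturbed brain.

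Several of these genes are neighbours, per the RefSeq annotation of mouse assembly GRCm38.p6. On chromosome 3, P2ry14 (59114623 to 59153492), P2ry13 (59207892 to 59210882) and P2ry12 (59216271 to 59262985) lie in a row on the minus strand, all inside the gene Med12l on the plus strand. P2ry13 and P2ry12 are 5388 bases apart. On chromosome 5, P2rx7 (122643927 to 122692336) and P2rx4 (122707518 to 122729739) lie on the plus strand, 15181 bases apart, and Camkk2 on the minus strand overlaps the end of P2rx4. The remaining measured genes stand apart, P2ry6 on chromosome 7, Entpd1 on 19 and Nt5e on 9.

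The 250 bases before the annotated start are shown for the 2 neighbouring pairs, because the members of the first pair moved the same way in these data and those of the second pair moved opposite ways. The windows are chr3:59262986-59263235 (minus strand) for P2ry12, chr3:59210883-59211132 (minus strand) for P2ry13, chr5:122707294-122707543 (plus strand) for P2rx4 and chr5:122643677-122643926 (plus strand) for 1 of the 2 annotated starts of P2rx7. The last 26 bases of the P2rx4 window lie inside its gene model. All are from RefSeq, GRCm38.p6, written 5′ to 3′ along the strand of the gene. Capitals mark matches to GAGGAA, the core bound by the myeloid factor PU.1, or to GGAAGT, a core shared by factors of its ETS family.
P2ry12: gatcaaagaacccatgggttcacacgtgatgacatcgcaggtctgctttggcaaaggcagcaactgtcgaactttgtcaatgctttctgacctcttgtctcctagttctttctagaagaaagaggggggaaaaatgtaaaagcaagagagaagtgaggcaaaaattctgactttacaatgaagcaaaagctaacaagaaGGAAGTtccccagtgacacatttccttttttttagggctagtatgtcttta
P2ry13: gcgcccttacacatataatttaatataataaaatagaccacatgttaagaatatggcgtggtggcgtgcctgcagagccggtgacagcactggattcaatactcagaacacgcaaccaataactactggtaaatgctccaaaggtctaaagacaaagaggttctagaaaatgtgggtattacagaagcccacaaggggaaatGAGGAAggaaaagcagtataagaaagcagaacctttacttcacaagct
P2rx4: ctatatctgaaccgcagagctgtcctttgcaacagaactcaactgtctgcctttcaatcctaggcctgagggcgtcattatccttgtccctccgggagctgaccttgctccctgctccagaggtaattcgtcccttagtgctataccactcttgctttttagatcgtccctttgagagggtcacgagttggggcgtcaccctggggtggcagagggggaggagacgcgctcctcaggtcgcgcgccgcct
P2rx7: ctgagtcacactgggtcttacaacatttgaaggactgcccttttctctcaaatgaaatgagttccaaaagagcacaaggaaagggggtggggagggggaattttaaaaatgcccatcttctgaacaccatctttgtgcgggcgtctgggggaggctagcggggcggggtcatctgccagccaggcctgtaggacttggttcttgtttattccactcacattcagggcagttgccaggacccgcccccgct

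Searched on both strands, GGAAGT was found once before P2ry12, starting 51 bases before the start, and GAGGAA once before P2ry13, starting 48 bases before it. Of all 32851 promoter windows of the same length, 19.7% hold GGAAGT and 23.3% hold GAGGAA. Neither was found in the windows of P2rx4 and P2rx7. Both P2ry windows had a GC content of 41.6%, against 57.2% for P2rx4 and 53.6% for P2rx7. A TATA box (TATAAA, in 12.4% of windows), the MEF2 core (3.2%) and the SMAD box (GTCTAGAC, 0.167%) matched none of the 4 windows, and the C/EBP core (TTGCNNAA, 9.56%) matched that of P2ry12 once. A match describes letters only, and no binding was measured here.

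Plaque-bearing 5XFAD mice were first set against WT. All 6 tested genes differed: 5 fell and 1, P2rx4, rose. Of the 12728 genes, 15.0% were called in this comparison by limma at an adjusted p under 0.05, 8.23% higher and 6.77% lower. Which direction held more genes turned with the scaling, from 1047 higher and 862 lower to 961 higher and 1074 lower with quantile normalization. The arrays of both groups did not overlap for 5 of the 6, as for 13.4% of genes. The median log2 difference of the 6 was -0.63, against -0.02 over all genes tested. In bulk samples such as these, fewer cells that express a gene and less RNA per cell cannot be told apart.

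The receptors for ADP came first in size among those that fell. P2ry12 had log2 levels of 11.31, 11.55, 11.65 and 11.59 in WT arrays 1 to 4 and of 10.69, 10.92, 10.38, 10.81 and 10.81 in 5XFAD arrays 1 to 5. Every 5XFAD array lay at least 0.39 below the lowest WT array, and 5XFAD 3 was the lowest. P2ry12 fell by 0.80 ± 0.11 on the log2 scale (standard error; 1.74-fold; limma, adjusted p = 1.9e-05). P2ry13, the close relative of P2ry12 that also binds ADP, had levels of 12.06, 12.03, 12.01 and 11.93 in WT and of 11.08, 11.28, 11.04, 11.17 and 11.22 in 5XFAD. Its groups were further apart, with a gap of 0.65, and it fell by 0.85 ± 0.11 (1.80-fold; adjusted p = 7.4e-06).

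P2ry6, the receptor for UDP, showed the smallest and least certain decrease. Its log2 levels were 10.83, 10.50, 11.21 and 11.02 in WT and 10.32, 10.55, 10.60, 10.27 and 10.23 in 5XFAD, so that WT 2 lay within the range of 5XFAD. It fell by 0.50 ± 0.13 (1.41-fold; limma, adjusted p = 0.0124). The call was lost without WT 3, at a difference of -0.39 (adjusted p = 0.0614), when the fit held only these groups (adjusted p = 0.0607), and with Xist signal, a mark of female samples, as a covariate, at -0.38 (adjusted p = 0.0894). P2ry14, the receptor for UDP-glucose, had log2 levels of 3.08 to 3.81 on the 19 assigned arrays, where the 40th percentile lay between 4.16 and 4.34, and its groups overlapped throughout.

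The ATP-gated channels moved in opposite directions. P2rx4, a channel with high affinity for ATP that cycles through lysosomes and rises in spinal microglia after nerve injury, had log2 levels of 7.65, 7.49, 7.84 and 7.69 in WT and of 8.64, 8.65, 8.86, 8.54 and 8.62 in 5XFAD. The lowest 5XFAD array lay 0.70 above the highest WT array. P2rx4 rose by 0.99 ± 0.11 (1.99-fold; limma, adjusted p = 2.4e-06). P2rx7 had levels of 9.33, 9.23, 9.18 and 9.56 in WT and of 8.75, 8.44, 8.58, 8.70 and 8.85 in 5XFAD, again without overlap. It fell by 0.66 ± 0.13 (1.58-fold; adjusted p = 0.0010). Camkk2, whose gene overlaps P2rx4 on the other strand, differed by 0.19 ± 0.18 (adjusted p = 0.548). Med12l, which encloses the P2ry genes, fell by 0.47 ± 0.13 (adjusted p = 0.0215); whether these probe sets separate overlapping genes by strand was not tested.

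Entpd1 encodes CD39, which breaks ATP and ADP down to AMP. Its log2 levels were 11.08, 10.98, 11.16 and 11.19 in WT and 10.61, 10.67, 10.25, 10.56 and 10.49 in 5XFAD, and the groups did not overlap. It fell by 0.59 ± 0.11 (1.5-fold; limma, adjusted p = 4.4e-04). Nt5e encodes CD73, which turns AMP into adenosine. Its levels ran from 3.39 to 4.15 on the assigned arrays, so the step after Entpd1 was measured only under the 40th percentile of the arrays.

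**Figure D1:**
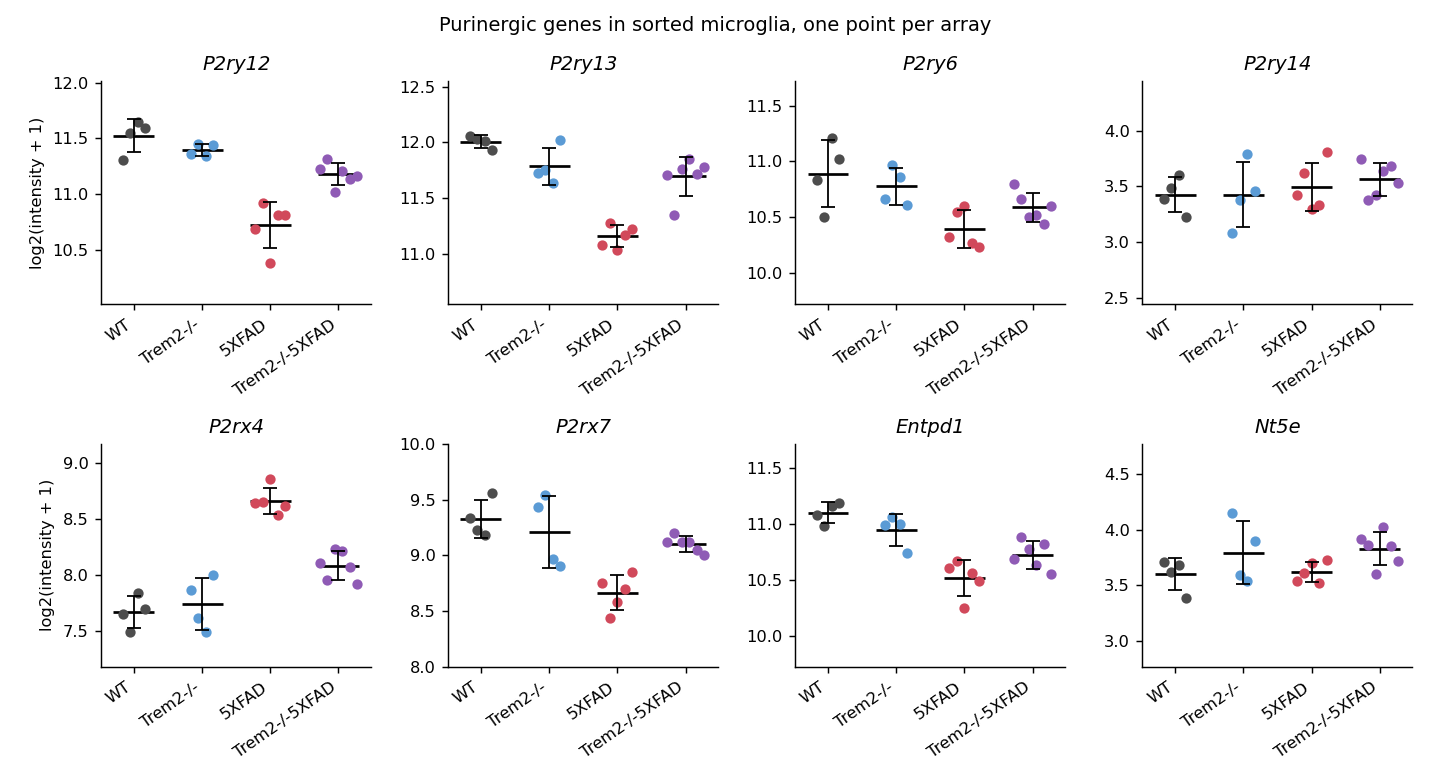
Log2(intensity + 1) of the 8 measured genes, 1 point per array, with the mean and SD of each group as lines; each panel spans 2 log2 units. P2ry12, P2ry13, P2rx7 and Entpd1 are lowest in 5XFAD and P2rx4 is highest there, with group means of 10.72, 11.16, 8.66, 10.52 and 8.66, and the Trem2-/-5XFAD means lie between those of 5XFAD and WT.

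Presence of Trem2 was compared next among mice with plaques, as Trem2-/-5XFAD against 5XFAD. Of the 6 tested genes 4 differed: P2ry12, P2ry13 and P2rx7 were higher and P2rx4 lower in Trem2-/-5XFAD. Over all genes 7.68% were called, 3.21% higher and 4.46% lower, or 286 higher and 625 lower genes in place of 409 and 568 when each array was centred on its median, and 523 higher and 499 lower with quantile normalization. The arrays of the 4 genes did not overlap between the groups, as for 7.14% of genes. Both comparisons share the 5XFAD arrays, so values that are extreme in 5XFAD enter both.

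In the 6 Trem2-/-5XFAD arrays, P2ry12 ranged from 11.02 to 11.32 with a median of 11.19, all above the highest 5XFAD array (10.92). The difference was 0.46 ± 0.10 (1.37-fold; limma, adjusted p = 0.00460). P2ry13 ranged from 11.35 to 11.85 with a median of 11.74, and its lowest array, Trem2-/-5XFAD 2, still lay 0.06 above the highest of 5XFAD. P2ry13 was higher by 0.54 ± 0.10 (1.45-fold; adjusted p = 9.5e-04). P2ry6 (10.44 to 10.80, median 10.56) overlapped 5XFAD, with a difference of 0.19 ± 0.12 (95% interval -0.05 to 0.44; adjusted p = 0.390).

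P2rx4 ranged from 7.92 to 8.23 with a median of 8.09, all at least 0.31 below 5XFAD. It was lower by 0.58 ± 0.10 on the log2 scale (1.49-fold; limma, adjusted p = 9.1e-04). P2rx7 lay tightly between 9.0 and 9.20 with a median of 9.12, all above 5XFAD, and was higher by 0.44 ± 0.12 (1.36-fold; adjusted p = 0.0228). This last call was lost without 5XFAD 2 (adjusted p = 0.0758) or 5XFAD 3 (adjusted p = 0.0536), with each array centred on its median (0.40, adjusted p = 0.0518) and without WT 1, WT 2, 5XFAD 1 and 5XFAD 2 (0.39, adjusted p = 0.153), the arrays high in salivary gland transcripts. Entpd1 (10.55 to 10.88, median 10.73) overlapped 5XFAD, and its difference of 0.21 ± 0.10 (95% interval 0.01 to 0.41) did not pass the test (adjusted p = 0.223).

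Without plaques, Trem2-/- and WT did not differ by the test in any of the 6 genes. This comparison called 0.613% of all genes (0.385% higher, 0.228% lower), and none of the 6 reached an unadjusted limma p under 0.05 either (0 of 6). The log2 differences were -0.13 ± 0.11 for P2ry12 (95% interval -0.37 to 0.11; limma, adjusted p = 0.707), -0.22 ± 0.11 for P2ry13 (-0.45 to 0.01; 0.443) and -0.11 ± 0.14 for P2ry6 (-0.40 to 0.18; 0.803). They were 0.07 ± 0.12 for P2rx4 (-0.18 to 0.32; adjusted p = 0.870), -0.12 ± 0.14 for P2rx7 (-0.40 to 0.17; 0.796) and -0.16 ± 0.11 for Entpd1 (-0.39 to 0.08; 0.615). All 6 genes overlapped between the groups, where 5.79% of all genes did not. The Trem2-/- arrays were not equally close together: P2ry12 lay at 11.36, 11.45, 11.34 and 11.44, whereas P2rx7 lay at 9.43, 9.54, 8.97 and 8.90, a pair high and a pair low.

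The same comparison with plaques added on a Trem2-/- background, Trem2-/-5XFAD against Trem2-/-, also called none of the 6 genes, with 2.18% called over all genes (1.63% higher, 0.558% lower, or 141 higher and 92 lower genes in place of 207 and 71 after median centring). At an unadjusted limma p under 0.05 there were 2, P2rx4, higher by 0.34 ± 0.11 (adjusted p = 0.120), and Entpd1, lower by 0.22 ± 0.10 (adjusted p = 0.317). P2ry12 was lower by 0.22 ± 0.10 (adjusted p = 0.351), and its arrays did not overlap, by a gap of 0.02, as for 6.01% of genes. P2ry13 (-0.09 ± 0.10), P2ry6 (-0.19 ± 0.13) and P2rx7 (-0.11 ± 0.12) had adjusted p-values of 0.749, 0.541 and 0.758. The 95% intervals reached down to -0.43 for P2ry12 and up to 0.57 for P2rx4, and changes of that size lie within what these arrays allow.

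Whether the difference with 5XFAD itself depended on Trem2 was tested by the interaction, the difference with 5XFAD in Trem2-/- mice minus that in mice with Trem2. It was called for 3 of the 6 genes, against 2.60% of all genes (1.02% higher, 1.58% lower, or 78 higher and 224 lower genes in place of 130 and 201 after median centring and 167 and 198 with quantile normalization). P2ry13 had an interaction of 0.76 ± 0.15 (95% interval 0.45 to 1.07; limma, adjusted p = 0.00588), P2ry12 of 0.58 ± 0.15 (0.27 to 0.90; adjusted p = 0.0404) and P2rx4 of -0.65 ± 0.16 (-0.98 to -0.32; adjusted p = 0.0307). For P2rx7 it was 0.55 ± 0.18 (0.18 to 0.93; adjusted p = 0.123), for Entpd1 0.36 ± 0.15 (0.06 to 0.67; 0.242) and for P2ry6 0.31 ± 0.18 (-0.07 to 0.69; 0.476). P2ry13 kept its call with any 1 array left out (adjusted p at most 0.0178). P2ry12 lost it in 14 of the 19 fits that left out 1 array, with interactions between 0.50 and 0.66 and adjusted p-values up to 0.0856, and P2rx4 in 7 of 19, with interactions between -0.73 and -0.56 and adjusted p-values up to 0.0717. P2ry12 also lost it with median centring (adjusted p = 0.0755) and with the Xist covariate (0.0544), P2rx4 with quantile normalization (0.0532) and without the 4 arrays high in salivary gland transcripts (-0.56, 0.168), and both without Trem2-/- 1 and Trem2-/-5XFAD 1, the arrays highest in neutrophil markers (0.112 and 0.0971).

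**Figure D2:**
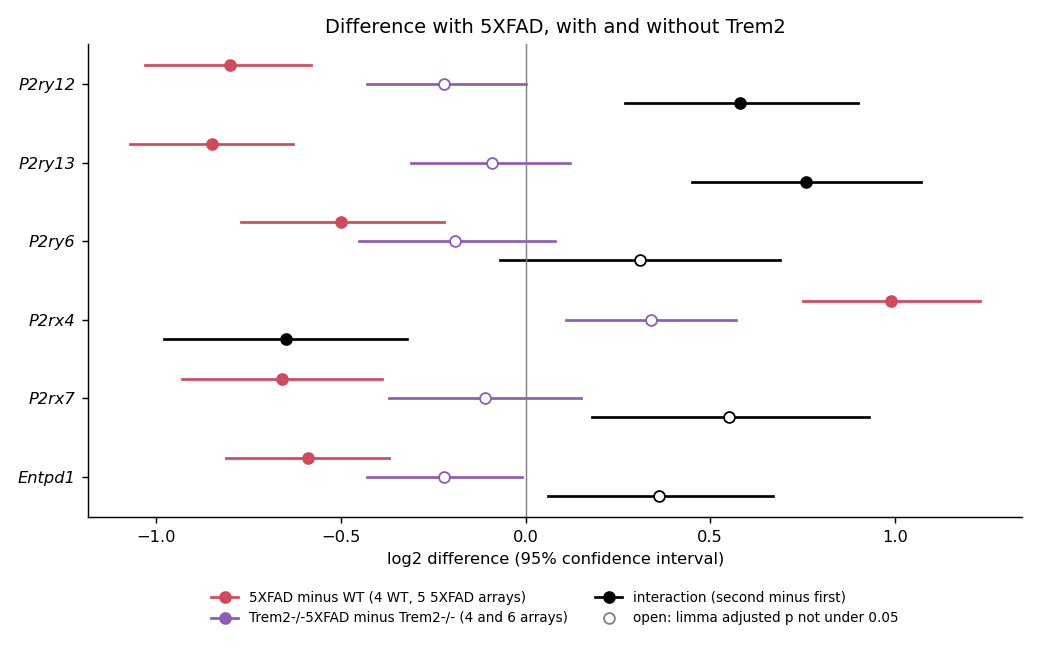
Log2 difference with 5XFAD in mice with Trem2 (red), in Trem2-/- mice (purple) and the interaction (black), with 95% confidence intervals; filled points have a limma adjusted p under 0.05. All 6 genes are called in red and none in purple, and the interaction is called for P2ry12 (0.58), P2ry13 (0.76) and P2rx4 (-0.65).

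Ordered by group mean, P2ry12, P2ry13, P2ry6, P2rx7 and Entpd1 all ran from WT through Trem2-/- and Trem2-/-5XFAD to 5XFAD, and P2rx4 ran in the same order upwards. The order is not particular to these genes. The mean of 12 general microglial markers had group medians of 11.43, 11.27, 11.20 and 10.99 in the same order of groups. The share of all genes with this order was not counted. For P2ry12 the means were 11.53 ± 0.15 in WT (SD, n = 4), 11.40 ± 0.05 in Trem2-/- (SD, n = 4), 11.18 ± 0.10 in Trem2-/-5XFAD (SD, n = 6) and 10.72 ± 0.21 in 5XFAD (SD, n = 5). For P2rx4 they were 7.67 ± 0.14, 7.74 ± 0.23, 8.08 ± 0.13 and 8.66 ± 0.12 in the same order of groups. WT and Trem2-/-, and Trem2-/- and Trem2-/-5XFAD, are neighbours that did not pass the test for any of the 6. The last step, from Trem2-/-5XFAD to 5XFAD, passed it for P2ry12, P2ry13, P2rx4 and P2rx7. P2ry14 (means 3.43 to 3.57) and Nt5e (3.6 to 3.83) did not follow this order; when the filter on low values was dropped, their adjusted p-values in the 5 contrasts were 0.743 to 0.999 and 0.365 to 0.987.

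Genes outside the list with the closest profiles were found by the root mean square difference over the 19 arrays, each gene centred on its mean. P2ry12, whose own spread was 0.32, was nearest to the phospholipid-remodelling enzyme gene Lpcat2 (0.10), the engulfment adaptor Elmo1 (0.11) and Cttnbp2nl (0.11). P2ry13 (own spread 0.33) was nearest to the Ral exchange factor gene Rgl1 (0.10), Cmtm6 (0.13) and the endosomal receptor Tlr9 (0.13). P2rx4 (own spread 0.41) was nearest to Gusb (0.15), which encodes a lysosomal glucuronidase, Lyz1 (0.16), a lysozyme gene, and Pkm (0.17), a glycolytic enzyme gene. P2rx7 (0.30) was nearest to Afap1l1 (0.14), Tgfbr1 (0.16) and Casp8 (0.16). Entpd1 (0.25) was nearest to the actin regulator Evl (0.11), to Tgfbr1 (0.12), a receptor for TGF-beta, and to Hfe (0.12). Hfe, a regulator of iron uptake, was also the nearest gene to P2ry6 (0.14; own spread 0.25), followed by Hps3 (0.14) and Rgs2 (0.15).

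The wider pathway was described by 72 other genes of nucleotide release, reception, breakdown and purine metabolism and of the signalling below these receptors. Of these, 50 were tested, and in 5XFAD vs WT 6 rose and 12 fell (median -0.06), against 8.23% and 6.77% of all genes. In Trem2-/-5XFAD vs 5XFAD 2 were higher and 1 lower, against 3.21% and 4.46% of all genes, together a share below the 7.68% called over all genes. In Trem2-/- vs WT 1 was higher and 2 lower (0.385% and 0.228% of all genes), and in Trem2-/-5XFAD vs Trem2-/- 2 were higher (1.63%). The interaction was called for 4 (2.60%). These counts describe the list and were not tested against other genes.

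Among the other receptors, P2rx1, an ATP-gated channel known from platelets and smooth muscle, fell in 5XFAD (limma, adjusted p = 3.7e-04). Its log2 level was 5.29 to 6.04 in WT and 3.76 to 4.38 in 5XFAD, around the 40th percentile of the arrays, so the fitted decrease of 1.47 ± 0.26 is no exact size. In Trem2-/-5XFAD it lay between 4.39 and 5.21, just above all 5XFAD arrays and near the same percentile, without passing the test (0.66 ± 0.23, adjusted p = 0.0994). Of the 4 other P2Y receptor genes only P2ry2, a receptor for ATP and UTP, passed the filter, and it was called in no contrast. No probe set carried the symbol of Adora2a or Adora2b alone, so adenosine receptors could not be described.

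The other nucleotide-cleaving ectoenzyme that changed was Enpp4, which lies on chromosome 17, as Trem2 does. It fell in 5XFAD by 0.68 ± 0.15 (limma, adjusted p = 0.00304) and, unlike the members of the list above, also in Trem2-/- vs WT, by 1.21 ± 0.16 (adjusted p = 4.0e-04). With plaques it was not lower without Trem2, at a difference of 0.15 ± 0.13 in Trem2-/-5XFAD vs 5XFAD (adjusted p = 0.591). On the Trem2-/- background it was higher with 5XFAD by 0.68 ± 0.14 (adjusted p = 0.0120), and the interaction was 1.36 ± 0.21 (adjusted p = 6.3e-04). Whether its position on the chromosome of Trem2 plays a part was not tested. Entpd4, an intracellular relative of Entpd1 in the Golgi, rose in 5XFAD by 0.48 ± 0.12 (adjusted p = 0.00608), opposite to Entpd1, and was lower without Trem2 both with plaques (by 0.62 ± 0.10, adjusted p = 5.0e-04) and without them (by 0.66 ± 0.12, adjusted p = 0.0126). Its near copy Entpd4b could contribute to that probe set.

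Of 12 tested genes of adenosine uptake and purine metabolism, 4 fell and 2 rose in 5XFAD, where 6.77% of all genes fell and 8.23% rose. Those that fell were the AMP deaminase Ampd3 (by 0.92 ± 0.14; limma, adjusted p = 9.8e-05), the purine nucleoside phosphorylase Pnp (0.60 ± 0.14; 0.00474) and the nucleoside transporters Slc29a1 (0.48 ± 0.11; 0.00518) and Slc29a3 (0.61 ± 0.15; 0.00851). Ampd3 was higher in Trem2-/-5XFAD than in 5XFAD, by 0.46 ± 0.13 (adjusted p = 0.0303). The purine salvage enzyme genes Hprt and Aprt, the other called members of this list and named after their values were seen, both rose by 0.41. Of 7 genes of nucleotide release, only Lrrc8a, a subunit of volume-regulated anion channels, was called, with a decrease of 0.34 ± 0.10 (adjusted p = 0.0234), a share near the 15.0% of all genes.

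A list of genes taken as partners of P2Y receptor signalling had 14 tested genes. Whether each of them, Kcnk6 included, acts with these receptors was not tested. Of the 14, 5 fell and 1 rose in 5XFAD, against 6.77% and 8.23% of all genes. The 5 included Plcb2, a phospholipase C activated by G proteins (by 0.59 ± 0.11; limma, adjusted p = 6.4e-04), the G-protein inhibitor Rgs2 (0.58 ± 0.11; 8.2e-04), the potassium channel gene Kcnk6 (0.80 ± 0.16; 0.00131) and Pik3cg, the phosphoinositide kinase downstream of G-protein beta-gamma subunits (0.36 ± 0.09; 0.00889). Pik3cg was higher in Trem2-/-5XFAD than in 5XFAD by 0.39 ± 0.08 (adjusted p = 0.00386), with an interaction of 0.55 ± 0.13 (adjusted p = 0.0202). For Plcb2 the interaction was 0.73 ± 0.15 (adjusted p = 0.00872).

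Of 8 tested genes of the inflammasome that acts below P2rx7, 2 rose in 5XFAD (8.23% of all genes). The inflammasome sensor Nlrp3 rose by 0.77 ± 0.13 (limma, adjusted p = 2.3e-04) and the cytokine Il1b by 2.54 ± 0.34 (adjusted p = 1.9e-05), from 7.70 to 10.04 in WT to between 10.97 and 11.58 in 5XFAD. Nlrp3 was also higher in Trem2-/- than in WT, by 0.77 ± 0.14 (adjusted p = 0.00938), where P2rx7 was not called. Its mean was 10.28 in Trem2-/- and 10.20 in Trem2-/-5XFAD. The interaction was called for 1 of the 8 genes, with a negative sign, against 1.58% of all genes. Il1b was 0.97 ± 0.31 lower in Trem2-/-5XFAD than in 5XFAD, which did not pass the test (adjusted p = 0.0645).

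**Figure D3:**
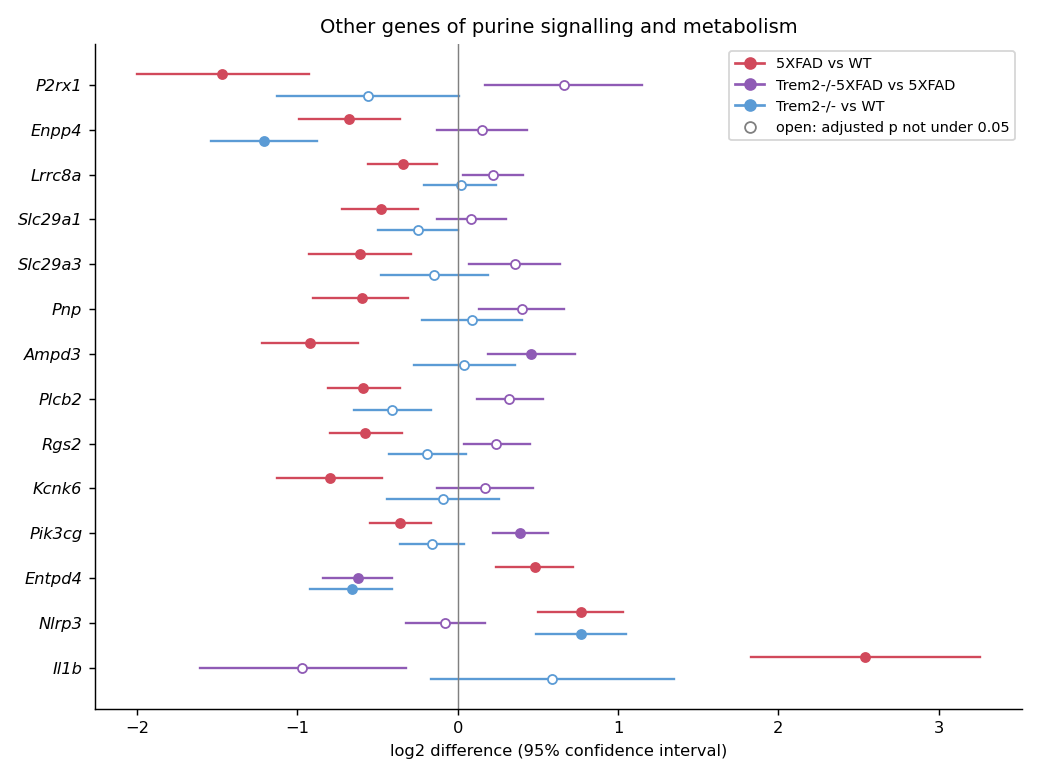
Log2 differences with 95% confidence intervals of 14 other genes of purine signalling and metabolism in 3 comparisons; filled points have a limma adjusted p under 0.05. The genes shown were called in a contrast, at most 4 a list by smallest p. Other called genes, Hprt and Aprt among them, are left out, so the panel does not give the balance of directions. Of the 50 tested, 6 rose and 12 fell in 5XFAD vs WT. There Ampd3 fell by 0.92 and Kcnk6 by 0.80, whereas Entpd4 (0.48), Nlrp3 (0.77) and Il1b (2.54) rose.

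Marker lists of the cells in the sort were measured on the same arrays. Microglial markers were high throughout (mean log2 of 12 genes 10.92 to 11.48) and lower in 5XFAD (10.92 to 11.02) than in WT (11.26 to 11.48) without overlap. Of the 12, none of them in the list of 10, 7 fell in 5XFAD, against 6.77% of all genes. In Trem2-/-5XFAD vs 5XFAD 4 were higher, against 3.21% of all genes. Markers of neurons (4.09 to 4.39), vascular cells (4.01 to 4.46) lymphocytes (3.99 to 4.59) and monocytes (3.53 to 4.37) lay near or under the 40th percentile of the arrays, and those of oligodendrocytes at 4.74 to 5.17. Lymphocyte markers were lower in 5XFAD (3.99 to 4.12) than in WT (4.17 to 4.41) and Trem2-/-5XFAD (4.14 to 4.47), without overlap. The mean of 6 monocyte markers was higher in 5XFAD (3.95 to 4.23) than in WT (3.53 to 3.80), also without overlap. Only 3 of these were tested, and 1 was called higher in 5XFAD vs WT, against 8.23% of all genes. The median log2 difference of the 3 was -0.06. The part of both lists in the results was not tested. The mean of 9 astrocyte markers was higher in 5XFAD (5.41 to 5.83) than in WT (4.94 to 5.14). Of the 6 tested, 2 were called higher and 1 lower in 5XFAD vs WT, against 8.23% and 6.77% of all genes. Their part in the results was not tested. Markers of border macrophages, which live along vessels and in the meninges, lay at 5.42 to 6.10 in 5XFAD, below WT (6.26 to 6.98) and Trem2-/-5XFAD (6.42 to 7.04). That is the same direction as P2ry12. In Trem2-/- these markers had the highest median (7.18, range 6.54 to 7.56), and P2ry12 differed there from WT by -0.13 ± 0.11. The 5XFAD arrays did not overlap WT or Trem2-/-5XFAD in this list, so a covariate fit cannot separate it from genotype. Its part in the results was not tested. With this list as a covariate, an alternative added after seeing the data, P2ry12 fell in 5XFAD by 0.93 ± 0.14 (limma, adjusted p = 1.2e-04). In Trem2-/-5XFAD it was then higher than in 5XFAD by 0.60 ± 0.14 (adjusted p = 0.0211). The calls of P2rx7 were lost with this covariate in both comparisons (-0.49 ± 0.16, adjusted p = 0.0661, and 0.24 ± 0.16, adjusted p = 0.559). That of P2rx4 was lost in the second (-0.52 ± 0.15, adjusted p = 0.0863). With neutrophil markers as a covariate, P2rx7 in the second comparison (0.42 ± 0.13, adjusted p = 0.0667) and the interaction of P2ry12 (0.58 ± 0.15, adjusted p = 0.0521) were not called.

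**Figure D4:**
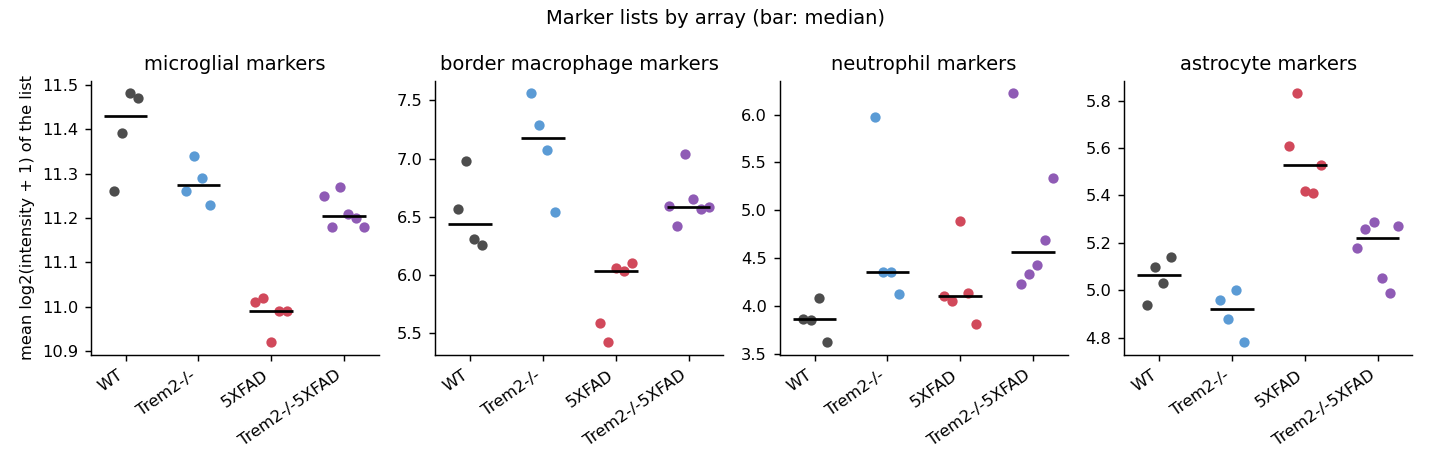
Mean log2(intensity + 1) of 4 marker lists, 1 point per array, with the group median as a bar; each panel has its own range. Microglial and border macrophage markers are lowest in 5XFAD (10.92 to 11.02 and 5.42 to 6.10), astrocyte markers are highest there (5.41 to 5.83), and neutrophil markers are high in Trem2-/- 1 (5.97) and Trem2-/-5XFAD 1 (6.22).

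Sex signal was unevenly spread. The log2 level of Xist, an RNA of the silenced X chromosome, was at least 8.61 in 3 of 4 WT, 3 of 4 Trem2-/-, 1 of 5 5XFAD and 0 of 6 Trem2-/-5XFAD arrays, and at most 3.67 in the others. Among arrays without Xist signal, where WT and Trem2-/- have 1 array each and that array is assumed to vary like the other groups, P2ry12 fell in 5XFAD by 0.81 ± 0.20 (limma, adjusted p = 0.0255), P2ry13 by 0.85 ± 0.19 (0.0168), and P2rx4 rose by 1.17 ± 0.18 (0.00143). The single WT array here, WT 2, and the single 5XFAD array with Xist signal, 5XFAD 1, are both high in salivary gland transcripts (6.40 and 5.91). P2rx7 (-0.59 ± 0.17, adjusted p = 0.0584), Entpd1 (-0.49 ± 0.19, 0.142) and P2ry6 (-0.09 ± 0.19, 0.852) were not called there. Among arrays with Xist signal, where 5XFAD has 1 array, P2ry13 fell by 0.92 ± 0.19 (adjusted p = 0.0360), and the other 5 kept their direction without a call, with P2ry12 at -0.82 ± 0.21 (0.0775) and P2rx4 at 0.91 ± 0.22 (0.0598). Trem2-/-5XFAD vs 5XFAD had 6 and 4 arrays without Xist signal, and P2ry12 (0.45 ± 0.11, adjusted p = 0.0335), P2ry13 (0.52 ± 0.11, 0.0129), P2rx4 (-0.58 ± 0.10, 0.00372) and P2rx7 (0.46 ± 0.10, 0.0138) were all called among them. The interaction was called for none of the 6 among these arrays, where it rests on the single arrays of WT and Trem2-/-: it was 0.53 ± 0.27 for P2ry13 (adjusted p = 0.440), 0.55 ± 0.28 for P2ry12 (0.437) and -1.09 ± 0.25 for P2rx4 (0.0766).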

How the data were processed

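The deposited table holds linear intensity values of 24679 probe sets on 20 arrays. The authors' summary and normalization were not given in the sources used here. Column medians lay between 25.7 and 28.6. Per the labels' protocols, cells were sorted into lysis buffer and biotin-labelled cRNA was made from little total RNA. The platform annotation named 1 gene for 21354 probe sets, several for 1275 and none for 2050. The probe set with the highest mean stood for a gene; each gene of the list had 1. Values were taken as log2(intensity + 1), which understates folds of low genes. A gene was tested if it exceeded the 40th percentile of the array (16.9 to 19.2 intensity units) on at least 4 of 19 assigned arrays.

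A single limma 3.58.1 model (R 4.3.3) held the 4 groups, with Benjamini-Hochberg adjustment over 12728 genes; called means an adjusted p under 0.05. Each ± beside a difference is a standard error. The fit was tested on simulated data for 5XFAD vs WT over 12728 genes: 48.0% of changes of 0.5 and 96.0% of changes of 1 (log2) were recovered. The simulated noise was normal, 50 genes were changed at each size, and 9 unchanged genes were called. These shares hold for that setting only, and the other contrasts were not simulated. Other pathway genes were named if called in any contrast, at most 4 a list by smallest p. The list of genes, the marker lists and the alternatives were chosen with earlier results of these data known. Promoter and position data are RefSeq's, GRCm38.p6. The number of arrays limits the precision.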

Additional observations from a re-analysis of the deposited data

Results flagged for a closer look

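P2ry13 was 11.35 in Trem2-/-5XFAD 2, far from the other arrays of its group (11.71 to 11.85). Across the 32 combinations of gene and group examined in this way, about 1 in 20 would be marked by chance. Without that array the interaction of P2ry13 was still called.

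The difference with 5XFAD depended on Trem2 by the interaction test for P2ry12 (0.58, limma adjusted p = 0.0404), P2ry13 (0.76, adjusted p = 0.00588) and P2rx4 (-0.65, adjusted p = 0.0307). The calls of P2ry12 and P2rx4 were lost under several alternatives, with adjusted p-values up to 0.437 and 0.168, and that of P2ry13 among arrays without Xist signal (0.440).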

How the results depend on the processing

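The 6 genes were tested under 17 alternatives or fewer in each of 5 contrasts, and in 19 fits that left out 1 array each. Of 486 values under alternatives, 450 kept direction and call, 29 lost the call and 7 changed sign; of 570 with 1 array left out these numbers were 544, 24 and 2. The genes called in 5XFAD vs WT numbered 6, and 5 to 6 with 1 array left out; they were 3 among arrays without Xist signal and 1 among arrays with it. In Trem2-/-5XFAD vs 5XFAD 4 were called, 3 to 4 with 1 array left out and 2 with the border macrophage covariate. In Trem2-/- vs WT and Trem2-/-5XFAD vs Trem2-/- 0 were called throughout. The interaction called 3, and 1 to 3 with 1 array left out. It called 1 with the replicate number as a block, where same-numbered arrays deviated together no more than others (median correlation 0.01 against -0.01), so the samples share only a number; the block also ended the call of P2rx7 in Trem2-/-5XFAD vs 5XFAD (0.46, limma adjusted p = 0.0517), and left P2ry12 at 0.0717 and P2rx4 at 0.0751 in the interaction. It called 1 without Trem2-/- 1 and Trem2-/-5XFAD 1, the arrays high in neutrophil markers, and 0 among arrays without Xist signal. Why these calls were lost was not tested. The subsets also hold fewer arrays.

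Signs changed only in differences that were not called. P2rx7 in Trem2-/-5XFAD vs Trem2-/- was 0.05 with Xist signal as a covariate, 0.20 among arrays without it, 0.01 with the border macrophage covariate and between -0.21 and 0.00 with 1 array left out, the latter without Trem2-/- 2. P2rx4 in Trem2-/- vs WT was -0.03 without WT 1, WT 2, 5XFAD 1 and 5XFAD 2, -0.07 among arrays with Xist signal and between -0.02 (without Trem2-/- 4) and 0.15 with 1 array left out. P2ry6 in Trem2-/- vs WT was 0.11 among arrays without Xist signal and 0.01 with the border macrophage covariate. Over all genes, the counts ranged from 444 to 2043 around 1909 in 5XFAD vs WT, 334 to 1089 around 977 in Trem2-/-5XFAD vs 5XFAD, 10 to 272 around 78 in Trem2-/- vs WT, 123 to 430 around 278 in Trem2-/-5XFAD vs Trem2-/- and 61 to 383 around 331 for the interaction. P2ry14 and Nt5e have no usable difference at their signal.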

Other observations

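The array with conflicting labels entered no comparison. Its log2 levels were 11.51 for P2ry12, 11.82 for P2ry13, 10.68 for P2ry6, 7.87 for P2rx4, 9.12 for P2rx7 and 10.93 for Entpd1. Trem2 was 11.08, just under the lowest WT array (11.14) and far above the highest array of the Trem2-/- groups (7.60). In Trem2 RNA the array was thus unlike its Trem2-/- genotype label. Its P2ry14 (3.68) and Nt5e (3.25) were under the 40th percentile.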
